A study of Mus musculus with 12 samples.

Results

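Liver RNA of Fah p21 double knockout mice without NTBC was compared with liver RNA of normal mice on the Affymetrix 430A array. The comparison holds 6 of the 12 arrays of the series, chosen by their titles: 2 double knockout arrays, called Fah p21 off 1 and 2, and 4 normal arrays, normal 1 to 4. All mice were 10 weeks of age, and the double knockout mice lacked both Fah and p21 and had been without NTBC for 14 days. Normal 1 was a wildtype mouse given water and normal 2 a wildtype mouse given NTBC. Normal 3 was a Fah knockout kept on NTBC. Normal 4 was a Fah p21 knockout kept on NTBC, and so the only normal array that shares both deletions with the double knockout livers. The rest of the series holds 3 Fah knockout livers without NTBC on 430A, and 2 further double knockout livers without NTBC and 1 normal liver on the 430 2.0 array. Each double knockout value rests on 2 mice, and the normal group pools 4 conditions with 1 mouse each. The labels used here name no strain and no sex.

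Fumarylacetoacetate hydrolase, the product of Fah, completes tyrosine breakdown. NTBC blocks an earlier step of that pathway, and without the drug Fah-deficient hepatocytes accumulate fumarylacetoacetate and related electrophiles, which react with glutathione, proteins and DNA. p21, encoded by Cdkn1a, inhibits cyclin-dependent kinases and halts the cell cycle when p53 is active. Adult hepatocytes rarely divide and spend much of their mRNA on plasma proteins, detoxification enzymes and amino acid metabolism.

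Signals are linear probe set intensities that the authors had scaled to a common level, and a gene was read at its brightest probe set with 1 gene symbol. Changes are differences of mean log2(signal + 9.9) ± SE, double knockout (n = 2) minus normal (n = 4), where 9.9 is the offset, so changes of dim genes are understated. Probe sets passed where limma gave an adjusted p below 0.05 (Benjamini-Hochberg over 15307 probe sets tested), and "rose" and "fell" are used of these only. The trimmed mean signal lay between 350.1 and 350.2 on each of the 6 arrays. The signals of both double knockout livers are given for each gene, and the change without one of them is that of the other alone. In the whole liver samples measured here, fewer cells of a type and less RNA per cell cannot be told apart.

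The targeted genes and the cell type were checked first. Fah was at 6868 and 7120 in the wildtype livers, at 181.9 in normal 3 and 233 in normal 4, and at 114.2 and 105.3 in the double knockout livers. It separates the genotypes, not the groups, and did not pass (-3.36 ± 1.32, limma adjusted p = 0.081). The array has 2 probe sets for Cdkn1a. The one ending in _a_at was at 42.3, 17.5, 51.4 and 14.7 in normal 1 to 4 and at 9.5 and 8.2 in the double knockout livers. The one ending in _at was at 126, 75.2, 227.1 and 257.7, and at 1828 and 2060. It therefore rose (3.57 ± 0.38) in livers labelled as lacking p21. The labels do not place either probe set relative to the deleted part of Cdkn1a, and the normal livers alone do not check the label. In the 3 Fah knockout livers without NTBC the _a_at probe set was at 989.5, 1861.5 and 1195.5. It thus sets the double knockout livers apart from these. The _at probe set was at 2814, 3675.9 and 3935.7 there, high as in the double knockout livers. All 8 hepatocyte markers on the array were bright on all 6 arrays, and the lowest values were those of Hnf4a, a hepatocyte transcription factor, at 2621 in Fah p21 off 1 and 2204.5 in Fah p21 off 2. Alb, albumin, ranged from 17061 to 18855 over the normal livers and measured 12746 and 11573, a change that went from -0.55 to 0.05 after quantile normalization. Y-linked Eif2s3y ranged from 315.7 to 363.5 over the normal livers and measured 237.1 and 273.7 in the double knockout livers, and Xist was at 94.2 to 184.3 over all 6.

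Across the array, 4353 probe sets passed, 28.4% of those tested: 2716 (17.7%) were higher and 1637 (10.7%) lower in the double knockout livers. Counted as genes, 1640 of 9195 rose (17.8%) and 1061 fell (11.5%). Of the probe sets that passed, 1396 were at least 2-fold higher and 739 at least 2-fold lower, and at 16-fold these numbers were 37 and 16. The median change was 0.11 over all probe sets and 0.09 over all genes. With 1 double knockout array left out, 2533 (without Fah p21 off 1) or 2595 (without Fah p21 off 2) probe sets passed, and with normal 4, the liver of the same genotype, as the only control, 1862 passed. The share of higher calls depends on the scaling. It was 62.4% on the deposited scale, 51.7% after quantile normalization and 39.3% after scaling to a common median, where the median change was -0.02 and -0.13. Genes that rose had a median signal of 200.2 in normal liver, those that fell 1236, and all genes tested 273.1. Probe sets that fell held 35.6% to 37.4% of the summed signal on the normal arrays and 20.1% and 20.4% on the double knockout arrays. Those that rose went from 8.5% to 9.3% of the summed signal to 20.9% and 21.3%. These shares describe probe sets chosen by the same test, and scaling to a common mean ties the shares of an array to each other.

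**Figure D1:**
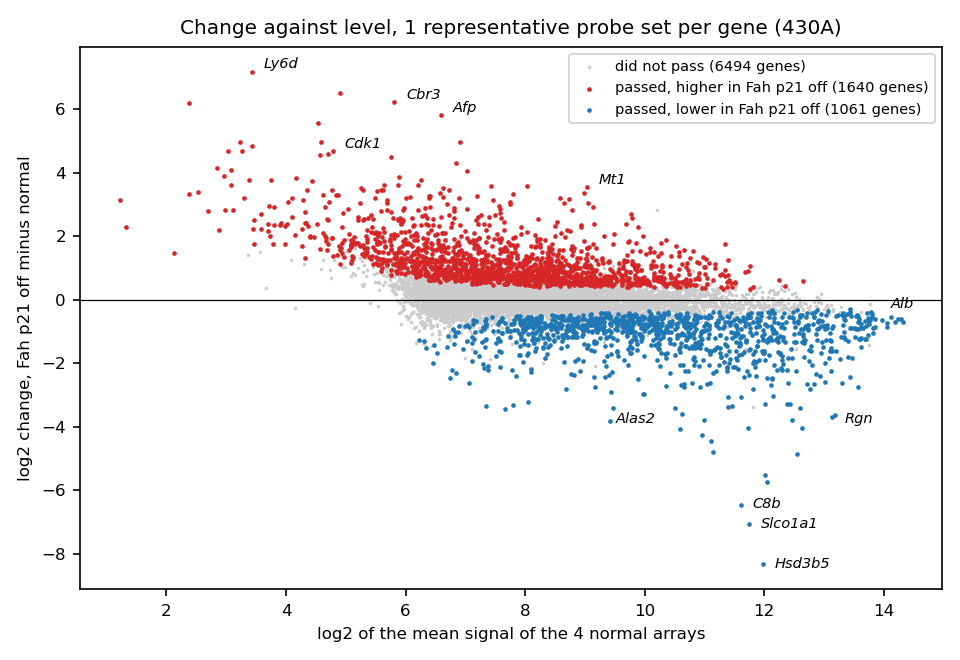
Each point is 1 of 9195 genes at its representative probe set. The x axis is log2 of the mean signal of the 4 normal arrays and the y axis the log2 change of the double knockout arrays from normal; 1640 genes that passed lie above 0 and 1061 below, the falls reaching far into the bright genes.

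Each double knockout array was also read alone against the range of the 4 normal arrays. Fah p21 off 1 had 860 probe sets at least 2-fold above the highest normal array (5.62%) and 582 at least 2-fold below the lowest (3.8%). Fah p21 off 2 had 946 (6.18%) and 476 (3.11%). Both arrays lay at least 2-fold above all normal arrays for 637 probe sets and at least 2-fold below for 375. The double knockout arrays differed from each other by at least 2-fold at 552 probe sets (3.61%). Pairs of normal arrays did so at 334 to 1107 probe sets (2.18% to 7.23%), the fewest between the 2 wildtype livers and the most between normal 1 and normal 4. The spread between the double knockout livers thus lay within the range between the normal livers, but above that of the wildtype pair. No normal pair shares a condition, whereas the double knockout livers do, so that range is not one of replicates. Pairs of Fah knockout livers without NTBC, which also share a condition, differed by at least 2-fold at 225 to 870 probe sets (1.47% to 5.68%).

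Genes of mitosis rose together. Of 31 genes of G2 and mitosis that were tested, of 43 on the array, 27 rose, none fell and 4 did not pass, with a median change of 2.19 against 0.09 over all genes. Some members were bright enough to be tested in the double knockout livers alone. A filter without those arrays tested 22 and called 18 higher, and with no filter 32 of all 43 rose and none fell. Cdk1, the kinase that drives entry into mitosis, was at 20.4, 38.2, 25.7 and 25.8 in normal 1 to 4 and at 549 and 1617 in Fah p21 off 1 and 2. It rose 25.8-fold (4.69 ± 0.45). Ube2c, which loads ubiquitin for the anaphase-promoting complex, was at 51.1, 39, 5.2 and 8.7, and at 349.1 and 1500 (4.60 ± 0.63). Mki67, the Ki-67 proliferation antigen, was at 5, 10.8, 20.4 and 17.5, and at 124.9 and 686.4 (3.77 ± 0.60). Birc5, the survivin subunit of the chromosomal passenger complex, ranged from 11.4 to 27.7 over the normal livers and reached 204.6 and 678.3 (3.83 ± 0.55). In each of these genes both double knockout livers stood above all normal livers, and Fah p21 off 2 stood above Fah p21 off 1. Without Fah p21 off 2, 16 of the 31 rose, and with normal 4 as the only control 13.

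The promoters of 3 of these genes are shown because they hold both the CHR (TTTGAA), through which mitotic genes are known to be kept silent in resting cells, and the CCAAT box (CCAAT), the site of the activator NF-Y. The stretches lie upstream of the RefSeq start in GRCm38.p6, are written 5′ to 3′ along the gene's strand, and carry matches on either strand in capitals. The Cdk1 stretch is chr10:69352913-69353032 on the minus strand, with CHR matches at -71 and -15 and CCAAT boxes at -80 and -48. The Ube2c stretch is chr2:164769796-164769915 on the plus strand, with a CHR at -29 and CCAAT boxes at -88 and -57. The Mki67 stretch is chr7:135716462-135716581 on the minus strand, with CHR matches at -116 and -98 and CCAAT boxes at -188, -166 and -141.
Cdk1: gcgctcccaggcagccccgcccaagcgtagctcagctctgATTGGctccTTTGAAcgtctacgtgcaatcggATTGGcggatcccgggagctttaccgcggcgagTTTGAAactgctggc
Ube2c: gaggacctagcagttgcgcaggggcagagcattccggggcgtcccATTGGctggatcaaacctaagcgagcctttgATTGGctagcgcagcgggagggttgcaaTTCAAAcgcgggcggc
Mki67: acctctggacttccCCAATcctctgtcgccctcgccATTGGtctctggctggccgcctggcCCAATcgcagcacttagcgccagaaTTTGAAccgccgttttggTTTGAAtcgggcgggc
Both elements were found in the 250 bases upstream of 8 of 26 tested G2 and mitosis genes with a promoter in the table (30.8%), against 4.6% of all tested genes and 6.45% of all genes. A CHR, with or without a CCAAT box, was found in 9 of the 26 (34.6%) and in 12.9% of all tested genes. It was as common in the complement list, which mostly fell (6 of 15, 40%), but not in the coagulation list (3 of 20, 15%). Both elements were found in 0 of the 15 complement genes and 1 of the 20 coagulation genes. A match is a description of letters, not a site at which a factor was measured.

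DNA replication genes rose less evenly. Of 26 tested, 17 rose, 1 fell and 8 did not pass, with a median of 1.21; without Fah p21 off 2, 11 rose and 2 fell, and with normal 4 as the only control 9 rose. A filter without the double knockout arrays tested 24 and called 15 higher, and with no filter 20 of all 33 rose and 1 fell. Mcm6, a subunit of the replicative helicase, was at 6.2, 5.9, 19.1 and 6.5 in the normal livers and at 324.9 and 976.9 in the double knockout livers (4.95 ± 0.75). Mcm2, another subunit, ranged from 70.7 to 131.2 over the normal livers and reached 1099 and 1363 (3.53 ± 0.23). Rrm2, the ribonucleotide reductase subunit that limits dNTP supply, was at 135.8 to 183.3, and at 453.2 and 2327 (2.68 ± 0.46), so that most of its mean came from Fah p21 off 2. Mcm10 is the one that fell (-2.62 ± 0.30), from 1766 to 2691 to 351.5 and 332.8; its other probe set tested changed by -0.48 and did not pass. Tk1, thymidine kinase, did not pass (-1.38 ± 0.54, limma adjusted p = 0.079), with Fah p21 off 1 at 36.2 and Fah p21 off 2 at 254.7, inside the normal range of 233.6 to 360.8.

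G1 regulators had smaller changes. Of 12 G1 cyclins, kinases and E2F genes, 6 rose and none fell (median 0.75), but 3 rose without Fah p21 off 2, without normal 1 or without normal 3, 2 with normal 4 as the only control, and 1 after scaling to a common median. Cyclin D1, Ccnd1, was at 490.4, 407.6, 196.5 and 262.5 in normal 1 to 4 and at 674 and 847.9 (1.22 ± 0.30). Among 8 CDK inhibitors and pocket proteins, Cdkn1a not counted, 6 rose and 1 fell, and without Fah p21 off 2, or with normal 4 as the only control, the count of rises was 2. Cdkn2b, which encodes p15, was at 15.8 to 27.2 and at 349.1 and 102 (2.76 ± 0.41), higher in the liver with the lower mitotic signals. Cdkn1c, which encodes p57, was at 9.4 to 64.4 and at 169.8 and 130.3 (1.99 ± 0.45), and Rbl1, a pocket protein that E2F itself induces, at 39.2 to 82.6 and at 104.8 and 298.9 (1.60 ± 0.40). Some lost the call with 1 array fewer: Cdkn1c without Fah p21 off 1 (limma adjusted p = 0.0718), Ccnd1 (0.106) and Rbl1 (0.19) without Fah p21 off 2. The DNA repair and checkpoint list had 5 of 21 genes higher and none lower, against 17.8% of all genes higher, and 2 higher without Fah p21 off 2 or with normal 4 as the only control.

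**Figure D2:**
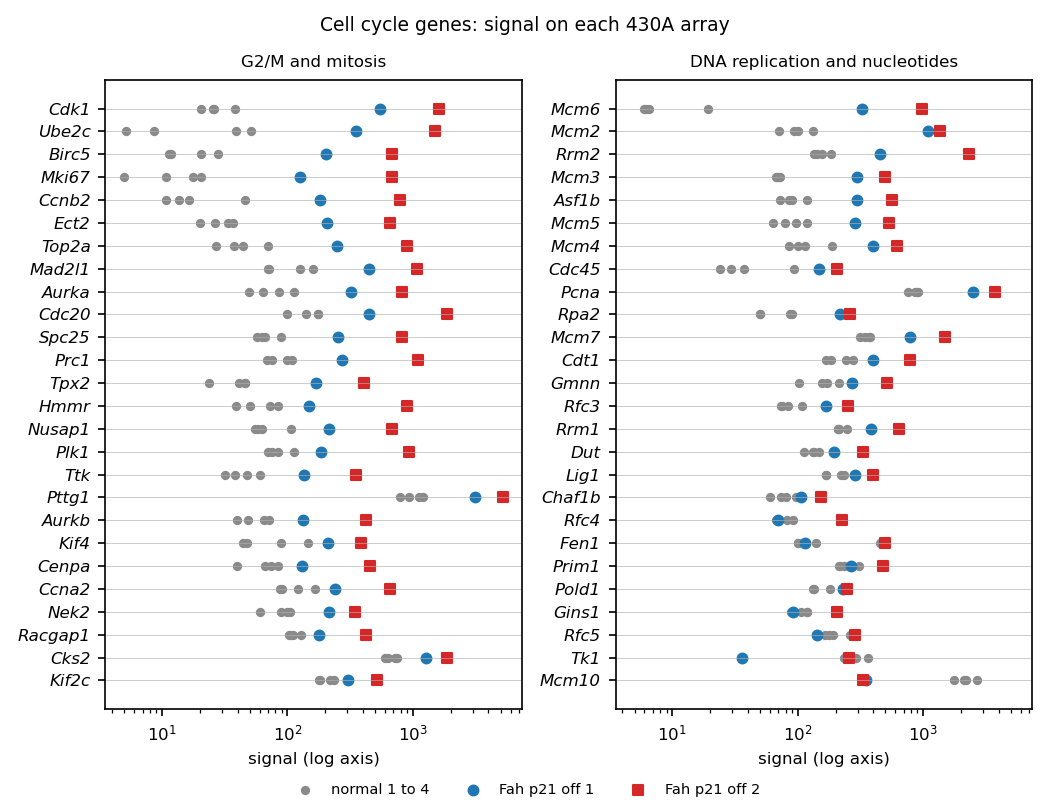
Signals on a log axis of the 26 members with the highest changes in the G2 and mitosis list and of the 26 replication genes tested. Grey points are normal 1 to 4, blue points Fah p21 off 1 and red squares Fah p21 off 2; for Cdk1 they lie at 20.4 to 38.2, 549 and 1617.

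Targets of p53 rose in the livers labelled as lacking p21. Of 23 targets other than Cdkn1a that were tested, 14 rose, none fell and 9 did not pass, with a median of 1.10, and the medians of the 2 double knockout livers were 1.18 and 1.21. Gtse1, which binds p53 and is also expressed in G2, was at 6.4 to 13.8 and at 189.5 and 365.8 (3.77 ± 0.33). Pmaip1, the proapoptotic gene Noxa, was at 2.8, 1.7, 13 and 3.2, below the offset in 3 of 4 normal livers, and at 109.6 and 166.5 (3.32 ± 0.54). Plk2 was at 84.3 to 159.7 and at 1277 and 1011 (3.19 ± 0.24). Phlda3, an inhibitor of Akt, was at 160.4 to 242.9 and at 1207 and 1423 (2.74 ± 0.19). Unlike the mitotic genes, Plk2 and Phlda3 had similar signals in both double knockout livers. Among 19 apoptosis regulators 6 rose and 1 fell, while 2 rose without Fah p21 off 1 and 1 with normal 4 as the only control. Pmaip1 and Bid, which links death receptors to mitochondria (1.05 ± 0.20), were among them.

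Genes of the electrophile response rose strongly. Nrf2 is the factor that raises glutathione and quinone-reducing enzymes when electrophiles react with its partner Keap1. Of 27 of its known targets tested, 22 rose, 2 fell and 3 did not pass (median 1.51). Cbr3, a carbonyl reductase, was at 28.2, 20.5, 136.3 and 39.2 in normal 1 to 4 and at 4706 and 3364 (6.22 ± 0.48). Gpx2, a glutathione peroxidase, was at 6.3 to 18.6 and at 643.6 and 506 (4.84 ± 0.24). Slc7a11, which imports cystine for glutathione synthesis, was at 43 to 127.4 and at 1310 and 675.7 (3.60 ± 0.35). Srxn1, sulfiredoxin, was at 341.9 to 412.9 and at 4109 and 3121 (3.19 ± 0.15), and its 4 probe sets tested ranged from 0.43 to 4.1, with 3 passing. All 4 were higher in Fah p21 off 1. The summed signal of the list went from 69948 to 88271 in the normal livers to 133010 and 109604, and of the bright liver genes it included Gclc, the limiting enzyme of glutathione synthesis, at 2823 to 3937 and at 7862 and 6563 (1.06 ± 0.15).

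Conjugating enzymes moved both ways within families. Of 21 glutathione S-transferase genes, 10 rose and 9 fell (median -0.12, and 0.48 after quantile normalization); without Fah p21 off 1, 5 fell, and with normal 4 as the only control 3. Mgst2, a microsomal family member, was at 6.6, 9.3, 67.6 and 11.7 and at 506.4 and 764.4 (4.55 ± 0.61), and Mgst3 was at 307.5 to 491 and at 3898 and 2821 (3.03 ± 0.25). Gstm3 was at 2090 to 3564 and at 8691 and 8438 (1.75 ± 0.22). Among 8 UDP-glucuronosyltransferase genes none rose and 4 fell (1 with normal 4 as the only control), Ugt3a2 most, from 4041 to 5014 to 484.1 and 598.3 (-3.04 ± 0.29). Of 6 sulfotransferase genes 1 rose and 2 fell. Sult2a2, a hydroxysteroid sulfotransferase, rose from 11.8 to 49.3 to 3685 and 3111 (6.5 ± 0.33), whereas Sult5a1 fell (-1.93 ± 0.23). The efflux pump gene Abcc2 was at 356.6 to 665 and at 3173 and 1924 (2.36 ± 0.30).

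Serine synthesis and other ATF4 targets rose in part, 10 of 20 with 1 lower. Psat1, the aminotransferase of serine synthesis, was at 4.1 to 6.3, below the offset in all normal livers, and at 1182 and 991.9 (6.18 ± 0.21). Psph, the last enzyme of that pathway, was at 103.9 to 122.7 and at 959.7 and 836.2 (2.89 ± 0.19). Fgf21, a stress hormone of the liver, was at 72.4, 67.9, 24.2 and 141.6 and at 2029 and 517.3 (3.77 ± 0.57). Genes of endoplasmic reticulum chaperones and the unfolded protein response did not rise with them as a list. Of 23, 2 rose (Ern1 and Eif2ak3) and 4 fell, against 17.8% and 11.5% of all genes. The median was -0.18, and -0.34 with normal 4 as the only control. Without normal 3, 7 fell. Herpud1 was among the genes that fell (-1.54 ± 0.28). Of 15 heat shock genes 4 rose, against 17.8% of all genes, and 7 rose without normal 1. Their median was 0.47 in Fah p21 off 1 and 0.25 in Fah p21 off 2. After scaling to a common median 2 rose and the median was 0.06. Hspb1 rose most, from 365.6 to 860.9 to 4502 and 3727 (2.91 ± 0.26). Hmox1, heme oxygenase, was at 135.5 to 348.8 and at 3126 and 896.4 (3.00 ± 0.47), and the metallothionein gene Mt1 was at 284.6, 212, 847.8 and 752.2 and at 5366 and 5241 (3.55 ± 0.48).

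Fetal liver and oncofetal genes rose: 14 of 17 tested, none lower, with a median of 2.54, the highest of the lists with 10 or more members tested. Ly6d, a surface protein gene silent in normal liver, was at 7.5, 13, 10.2 and 12.5 and at 2236 and 3965 (7.18 ± 0.23). That is the largest rise among genes read at their brightest probe set. Afp, the albumin-like serum protein of fetal liver, was at 61.4, 80, 135.2 and 111.2 and at 5193 and 6478 (5.82 ± 0.30). All 4 Afp probe sets tested passed, with changes from 2.75 to 7.59. Spink1, a secreted protease inhibitor, was at 5.9 to 11.3 and at 408.7 and 503.8 (4.69 ± 0.21). Cd24a was at 34.2 to 67.7 and at 471.9 and 845.2 (3.47 ± 0.33). The list medians of the 2 double knockout livers were close, at 2.46 and 2.62. Igf2, a fetal growth factor, rose with them, from 90.7 to 144.1 to 1125 and 442 (2.58 ± 0.41).

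The tubulin, annexin, keratin, S100 and actin lists had more rises than falls, as did all genes tested, of which 17.8% rose and 11.5% fell. Tubb6, a beta tubulin, was at 71.3, 6.8, 8.2 and 10.3 and at 426.7 and 1577 (4.97 ± 0.63), and 5 of 11 tubulin genes rose with none lower. Of 15 keratin genes 5 rose and none fell (median 0.23), and of 8 S100 genes 3 rose and 1 fell (median 0.09). The median over all genes was 0.09, so these 2 lists did not move as a whole. The list of actin, integrin and YAP target genes had 14 of 25 higher and 1 lower (median 0.69), with 8 and 7 higher without Fah p21 off 1 or 2, 9 after scaling to a common median and 8 with normal 4 as the only control. Of 8 annexin genes 6 rose (3 without Fah p21 off 2 or with normal 4 as the only control), among them Anxa5, from 286 to 437.5 to 1730 and 2386 (2.44 ± 0.19). S100a6 was at 29.2 to 71 and at 487.3 and 1006 (3.62 ± 0.36), and S100a1 fell (-1.21 ± 0.14). Itga6, a laminin receptor subunit, was at 8.2 to 13 and at 369.3 and 634.4 (4.67 ± 0.31). Outside these lists, Sprr1a, a cornified envelope gene, was at 91.2 to 134.5 and at 3389 and 4798 (4.97 ± 0.22). Tnfrsf12a, the receptor of TWEAK, was at 11.1 to 37 and at 1738 and 1225 (5.56 ± 0.38). Krt8, a keratin of hepatocytes, rose 2.56-fold, from 1917 to 2214 to 4574 and 5860 (1.36 ± 0.18).

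Markers of other liver cells moved by type. Of 7 cholangiocyte markers tested, of 11 on the array, 6 rose (median 2.17, and 1.95 with normal 4 as the only control). Prom1 rose most, from 23.3 to 62.5 to 309.8 and 828 (3.46 ± 0.37). With no filter 6 of all 11 rose, none fell and the median was 1.36. The defining bile duct keratins were too dim to be tested. Krt19 was at 15.5 to 30.4 in the normal livers against 29.1 and 60.8, so that Fah p21 off 2 alone lay above the normal range, and Krt7 at 7.9 to 36 against 26.7 and 19.7, inside it. Stellate and matrix markers had 12 of 18 higher and none lower (median 0.94; 7 higher without Fah p21 off 2, and 4 with normal 4 as the only control), with Col3a1 at 189.8 to 414.1 and at 1648 and 1764 (2.55 ± 0.55), while Des was at 122.8 to 161.1 and at 135.1 and 120.5. Macrophage markers had 12 of 17 higher and none lower (median 0.71), but 4 higher without Fah p21 off 1 or without Fah p21 off 2 and 3 with normal 4 as the only control, with Gpnmb, of lipid-laden macrophages, at 16.3 to 25.8 and at 190.2 and 547.1 (3.47 ± 0.55). Normal 4, the double knockout on NTBC, was the highest normal liver for this list, at a median of 0.39 from the normal mean, and its summed macrophage signal of 15091 lay nearer to the 17929 and 19352 of the livers without NTBC than to the 8298 of normal 2. Of 11 endothelial markers only Lyve1 rose (2.04 ± 0.31). None of 5 neutrophil, 4 exocrine pancreas or 4 kidney markers passed in limma, with 1, 0 and 1 at an unadjusted p under 0.05. Of 6 lymphocyte markers 2 rose, Ptprc (1.01 ± 0.34), which all leukocytes carry, and Ighm (0.75 ± 0.24, the only one of its 5 probe sets tested that passed, the lowest being at -0.91), and neither passed when Fah p21 off 1, Fah p21 off 2 or normal 1 was left out, and 1 of them when normal 2 was. The macrophage list's summed signal was 8298 to 15091 in the normal livers and the stellate list's 6503 to 7356 against 12819 and 14145. The part of other cell types in the changes of the gene groups was not tested.

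**Figure D3:**
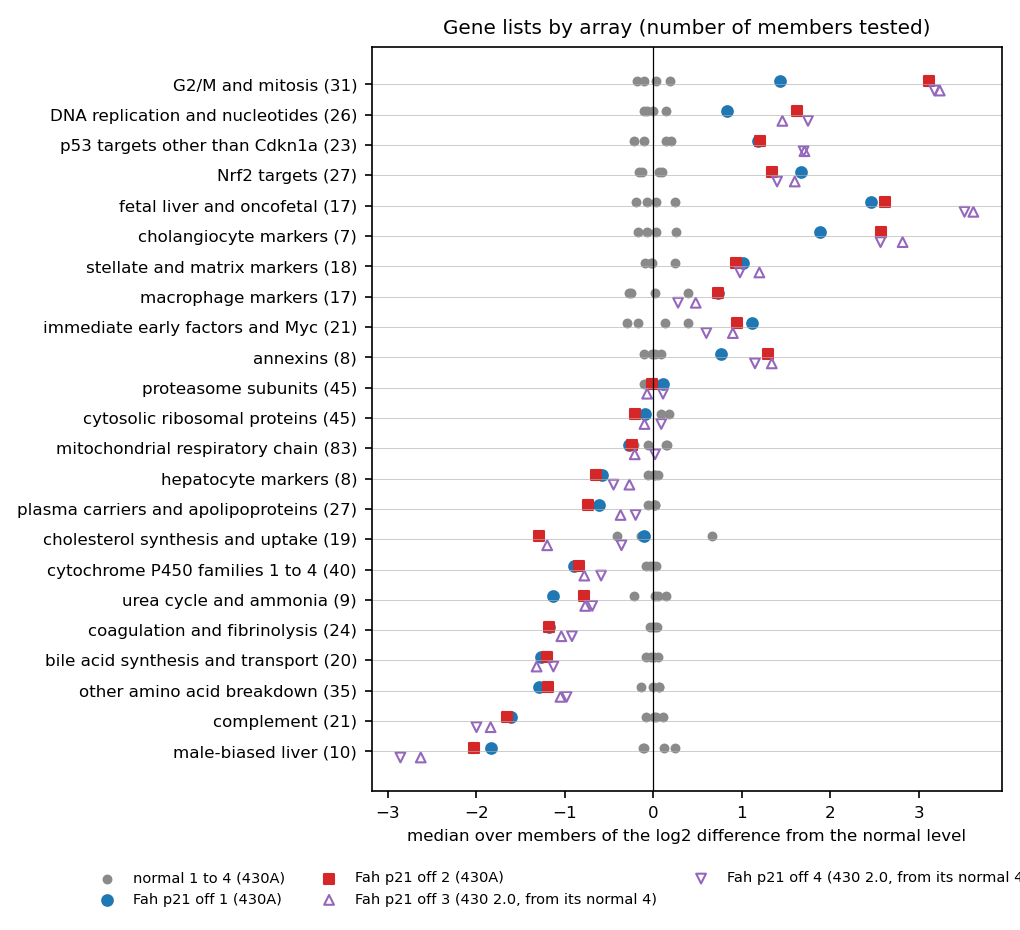
Each row is a gene list with the number of members tested, and each point the median over its members of the log2 difference of 1 array from the normal level (mean of normal 1 to 4 on 430A; the single normal array on 430 2.0). G2 and mitosis lies at 1.43 and 3.12 in Fah p21 off 1 and 2, whereas complement lies at -1.61 and -1.65.

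Proteins that the liver secretes into blood were among the deepest falls. Of 21 complement genes 16 fell and 2 rose (median -1.65), and of 24 coagulation and fibrinolysis genes 19 fell and 2 rose (median -1.19). C8b and C8a, which encode subunits of the membrane attack complex, had the lowest changes of the complement list. C8b was at 4116, 2771, 2368 and 3256 in normal 1 to 4 and at 10 and 52 (-6.45 ± 0.45), and C8a at 5481 to 6455 and at 115.4 and 327.5 (-4.86 ± 0.38). C8g (-2.34 ± 0.17) and C9 (-2.25 ± 0.37) fell less. Klkb1, plasma prekallikrein, was at 2318 to 3196 and at 218 and 323.2 (-3.35 ± 0.30), and F7, coagulation factor VII, at 1067 to 1556 and at 245.9 and 288.3 (-2.30 ± 0.21). The rises in complement were C1qa and C1qb, which macrophages make, and neither passed without Fah p21 off 1 or without Fah p21 off 2. Those in coagulation were Plaur, the urokinase receptor gene (1.4), and Plat, tissue plasminogen activator, from 47.2 to 97.3 to 278.6 and 366.9 (2.15 ± 0.30).

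Other plasma proteins had a smaller median fall. Of 27 plasma carriers and apolipoproteins 21 fell and 2 rose (median -0.70), but after quantile normalization 8 fell and the median was -0.13. Mug1, a murinoglobulin protease inhibitor, fell from 8610 to 9862 to 656 and 833.1 (-3.64 ± 0.27), and Pon1, paraoxonase, from 8798 to 11031 to 1386 and 1923 (-2.62 ± 0.16). Of the 8 hepatocyte markers 7 fell (median -0.61) on the deposited scale and 2 after quantile normalization (median -0.09). Ttr, transthyretin, was at 18435 to 19879 and at 12865 and 12264 (-0.61 ± 0.09, but 0.02 after quantile normalization), and Fgb, fibrinogen beta, at 14411 to 15203 and at 8132 and 8288 (-0.85 ± 0.10). Lpl, a lipase that adult hepatocytes barely express, rose from 258.2 to 857.4 to 4130 and 5144 (3.36 ± 0.42). The acute phase list was mixed, with 15 of 25 lower and 4 higher. Saa1 fell (-4.25 ± 0.55), from 1487, 1299, 1171 and 3993 to 51.6 and 126.5, and Lcn2, an iron-siderophore binding protein of inflamed tissue, rose (4.05 ± 0.49), from 54.8 to 258.6 to 1235 and 3309.

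**Figure D4:**
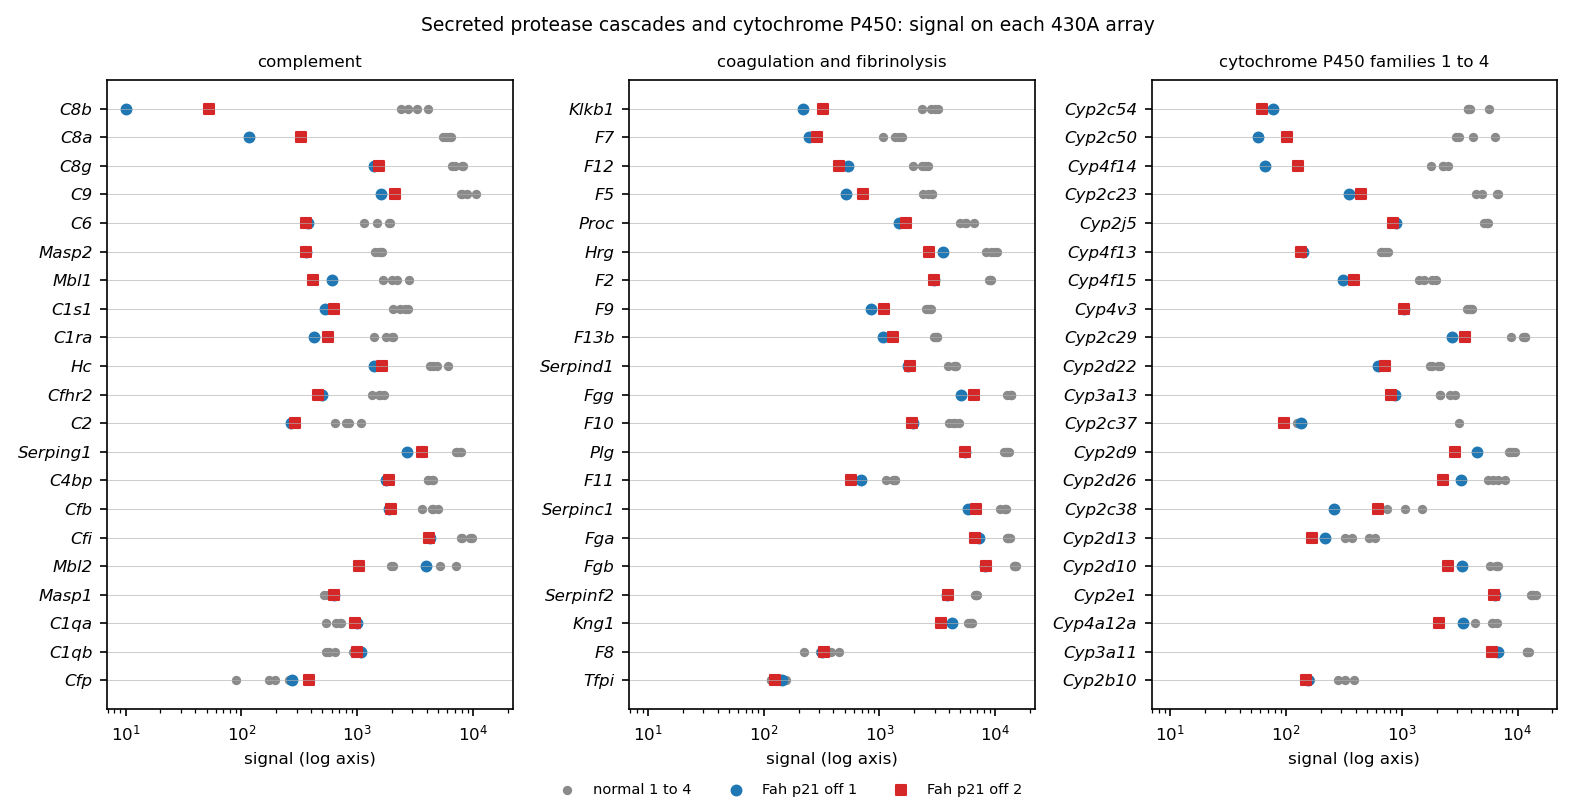
Signals on a log axis of the complement, coagulation and cytochrome P450 members with the lowest changes, up to 21 per list. Grey points are normal 1 to 4, blue points Fah p21 off 1 and red squares Fah p21 off 2; C8b lies at 2368 to 4116 against 10 and 52.

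Genes of amino acid breakdown and glucose synthesis fell. All 9 urea cycle and ammonia genes fell (median -0.93), as did 9 of 11 genes of phenylalanine and tyrosine breakdown, 27 of 35 genes of other amino acid breakdown (1 rose) and 7 of 8 gluconeogenic genes. With normal 4 as the only control, 5 urea cycle and 17 other amino acid breakdown genes were lower. Asl, argininosuccinate lyase, was at 3892, 4071, 3158 and 2311 and at 694.6 and 676.6 (-2.24 ± 0.25). Cps1, the entry enzyme of the cycle, fell from 10277 to 13345 to 5300 and 5113 (-1.16 ± 0.14). Tat, which starts tyrosine breakdown, fell from 5712 to 9415 to 1148 and 1835 (-2.40 ± 0.23), and Hgd, the enzyme just after the step NTBC blocks, from 4457 to 6948 to 2236 and 2380 (-1.32 ± 0.19). Oat, ornithine aminotransferase, measured 7048 and 7348 in normal 1 and 2, 3910 and 3931 in normal 3 and 4, which carry the knockouts, and 487.3 and 586.4 without NTBC (-3.29 ± 0.26). Prodh2, which degrades hydroxyproline, fell to 35.4 and 171.4 from 1140 to 1970 (-4.08 ± 0.44).

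Genes of sugar metabolism moved both ways, and of 16 glycolysis and glucose uptake genes 6 rose and 3 fell (median 0.32). Pck1, which commits carbon to glucose synthesis, fell from 3837 to 5101 to 816.4 and 1477 (-2.04 ± 0.27), and G6pc, which releases free glucose, from 2911 to 4721 to 1282 and 1305 (-1.60 ± 0.19). Pklr, the liver pyruvate kinase, fell from 802.5 to 1273 to 285.6 and 282.9 (-1.78 ± 0.23), and Pkm, the isoform of fetal and dividing cells, rose from 64.8 to 134 to 1080 and 725.9 (3.02 ± 0.33). Slc2a2, the liver glucose transporter, fell (-2.47 ± 0.34), to 407 and 1378 from 3981 to 4525, and Slc2a1, the transporter of most other cells, rose from 131.7 to 283.9 to 657.4 and 541.7 (1.52 ± 0.25).

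Cytochrome P450 genes fell in 22 of 40 tested and rose in 5 (median -0.87). Cyp2c54 was at 3718 to 5624 and at 76.8 and 61.7 (-5.73 ± 0.20), Cyp2c50 at 2922 to 6367 and at 57.1 and 101.7 (-5.51 ± 0.63), and the arachidonic acid epoxygenase gene Cyp2c23 at 4419 to 6839 and at 351.8 and 441 (-3.79 ± 0.24). Members of the Cyp2c, Hsd3b and Ugt families are alike in sequence, and probes of one may bind transcripts of another. Cyp1a1, induced through the aryl hydrocarbon receptor, rose from 148.1 to 194.7 to 1493 and 785.4 (2.62 ± 0.26). Of 20 genes of bile acid synthesis and transport 15 fell and 2 rose (median -1.24), with 8 lower when normal 4 was the only control: the uptake transporter gene Slco1a1 went from 2831 to 4204 to 9.6 and 23.3 (-7.07 ± 0.23), and Slco1b2 from 4781 to 5322 to 1117 and 1376 (-2.03 ± 0.35). Both fell while the export pump gene Abcc2 rose.

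Genes with a sex bias in mouse liver moved against each other. Of 10 male-biased genes tested 9 fell (median -1.93). Of 7 female-biased genes tested, of 15 on the array, 5 rose and none fell (median 1.92). Fewer rose with either double knockout array left out, and the medians of Fah p21 off 1 and 2 were 2.18 and 1.66. With no filter 4 of all 15 rose, none fell and the median was 0.57. None of 4 sex-linked transcripts passed in limma, with 1 at an unadjusted p under 0.05. Hsd3b5, a steroid reductase of male liver, was at 4350, 2949, 3762 and 5039 and at 2.4 in both double knockout livers, under the offset (-8.33 ± 0.22, the largest fall). Cyp7b1, an oxysterol hydroxylase, was at 5698 to 8407 and at 912.9 and 1036 (-2.82 ± 0.27). Elovl3, a fatty acid elongase, was at 6438, 3634, 1019 and 2557 and at 140.4 and 187.4 (-4.03 ± 0.58). Growth hormone sets the bias of many such genes, and its receptor gene Ghr fell from 5222 to 6562 to 1280 and 1201 (-2.25 ± 0.31). Igfals, a growth hormone target that carries IGF1 in blood, fell from 870.9 to 1207 to 115.4 and 128.9 (-2.95 ± 0.26), and Igfbp1 rose from 571.2 to 966.6 to 5006 and 3655 (2.38 ± 0.29).

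Of 21 genes of fatty acid synthesis and desaturation 12 fell and 2 rose, while 6 fell without Fah p21 off 1 and 5 with normal 4 as the only control. Scd1, the main desaturase of liver, was at 9781, 9795, 10327 and 3436 and at 689.6 and 2275 (-2.60 ± 0.51), and its relative Scd2 rose from 57.9 to 132.1 to 1241 and 588.5 (3.26 ± 0.38). Thrsp, a lipogenic nuclear protein gene, fell to 235.3 and 1129 from 4183 to 7380 (-3.29 ± 0.65). Without Fah p21 off 1, Scd1 (limma adjusted p = 0.0595) and Thrsp (limma adjusted p = 0.0604) no longer passed. Of 27 genes of fatty acid oxidation and PPAR alpha, 5 rose, near the 17.8% of all genes, and 8 fell (5 fell without Fah p21 off 2, 2 with normal 4 as the only control, and 3 after quantile normalization, where the median went from -0.11 to 0.16), with Pdk4, a brake on glucose oxidation, at 40.5 to 73.2 and at 1475 and 1346 (4.50 ± 0.21), and Acot1 at 71.5 to 289.1 and at 1431 and 1498 (3.15 ± 0.40). Fabp4, a fatty acid carrier of adipocytes and macrophages, rose at its brightest probe set (4.29 ± 0.23) and at 2 of its 3 probe sets tested, the other being at -0.03.

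The abundant genes, those with a normal mean signal at or above 3156 (the 95th percentile), had 8 of 460 higher and 285 lower. Choosing genes by a high normal level itself favours falls, and the counts depend on the scaling: quantile normalization gave 56 higher and 189 lower. Beside the secreted proteins and cytochromes the falls include Inmt, an N-methyltransferase, from 4755 to 9424 to 267.4 and 492 (-4.04 ± 0.29), and Rgn, a calcium-binding lactonase, from 7721 to 9935 to 600.1 and 796 (-3.68 ± 0.17). Aox3, an aldehyde oxidase, was at 5276 to 6768 and at 547.3 and 604.4 (-3.41 ± 0.17). The rises were small: after Gclc came Ugdh, which makes UDP-glucuronate, at 3000 to 3994 and at 6608 and 5947 (0.90 ± 0.13), Mdh2, Plin2, Ephx1, Txn1, Tpi1 and Rab1a. Without Fah p21 off 1 the last 5 of these no longer passed (limma adjusted p = 0.0856 to 0.27), and Rab1a, the smallest rise (0.33 ± 0.10), was lost without any one of the other arrays of the comparison too. Tpi1 also lost the call without normal 2 or normal 4, and Txn1 without normal 2. Tpi1 passed at 1 of 3 probe sets tested and Rab1a at 1 of 2. Of 6 erythroid markers 1 rose and 2 fell: Tfrc, the transferrin receptor, which many dividing cells carry, from 290.8 to 400.3 to 2649 and 817.7 (2.01 ± 0.43), Alas2, the erythroid aminolevulinate synthase, from 1151 to 2208 to 176.8 and 79.1 (-3.58 ± 0.66), and Klf1 (-0.83 ± 0.22). Without Fah p21 off 1 none rose and 1 fell, and without Fah p21 off 2, 1 fell.

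Proteasome and ribosomal protein genes had few calls on the deposited scale. Over all genes 17.8% rose and 11.5% fell, the shares to set beside each count of this paragraph. Among 45 proteasome subunits 4 rose and 2 fell, with Psmd5 at 474.7 to 705.7 and at 1657 and 1344 (1.26 ± 0.18) the largest. Among 45 cytosolic ribosomal protein genes 3 rose and 3 fell, and among 71 mitochondrial ribosomal protein genes 3 rose and 4 fell. These small counts moved with the scaling, and quantile normalization gave 9 higher and 3 lower proteasome subunits 11 higher and 1 lower cytosolic and 2 higher and 8 lower mitochondrial ribosomal protein genes. The respiratory chain had 19 of 83 lower and 3 higher (median -0.25), led by Ndufb10 (-1.44 ± 0.24); without Fah p21 off 1 or 2 there were 9 or 7 lower, with normal 4 as the only control none, and after quantile normalization 8 lower and 6 higher. Among 24 interferon-stimulated genes 3 rose and 1 fell (3 and 5 after scaling to a common median). Cxcl9 was the one that fell, from 118.2 to 300.8 to 18.9 and 53.2 (-2.41 ± 0.46). In a list of 16 tested genes drawn up as MHC class I and II, none rose and 6 fell. The lowest change of that list, H2-Ke6 (-2.9), is of a gene that encodes no MHC molecule. H2-K1 was at 9674 to 11757 and at 4255 and 4655 (-1.23 ± 0.14). Splicing factor genes rose in 14 of 52, with none lower, in 7 and 5 without Fah p21 off 1 or 2, in 4 with normal 4 as the only control, and in 6 after scaling to a common median, with 2 lower.

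The double knockout livers differed from each other by gene group. G2 and mitosis genes had a median of 1.43 in Fah p21 off 1 and 3.12 in Fah p21 off 2, and 29 of 31 were higher in the second. Replication genes had medians of 0.83 and 1.63, with 25 of 26 higher in Fah p21 off 2. Nrf2 targets went the other way, at 1.67 and 1.34, with 0 of 27 higher in Fah p21 off 2. Cholesterol synthesis and uptake genes were at -0.10 and -1.29, with 1 of 19 higher in Fah p21 off 2. Complement (-1.61 and -1.65) and coagulation (-1.18 in both) had close medians in the 2 livers. With 1 array on each side there is no test of these differences.

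The genes that follow were chosen for their difference between the double knockout arrays, so that difference is a description. Hmmr, a spindle protein gene, was at 148.5 in Fah p21 off 1 and 901.6 in Fah p21 off 2, against 39.2 to 84.3 in the normal livers. Il1r1, the interleukin 1 receptor, was at 59.3 and 349.7 against 30.8 to 53, and Socs3, a brake on cytokine signals, at 89 and 524.2 against 62.2 to 236.8. In the other direction Sqle, squalene epoxidase, was at 2474 and 489.7, and its normal values were 1648, 555.7, 937.3 and 537.9. Msmo1, a sterol oxidase of the same pathway, was at 2301 and 380.5, with normal values of 6714, 3170, 1534 and 1746. The cholesterol genes thus varied within the normal group too, where normal 1 had a list median of 0.66. Of 19 such genes 6 fell (3 with normal 4 as the only control), Tm7sf2 most, from 1193 to 2132 to 296.3 and 202.1 (-2.64 ± 0.26). Ifi202b, an interferon-inducible gene whose level is known to differ between inbred strains, measured 74.3 and 75.8 in normal 1 and 2, 4.3 and 2.8 in normal 3 and 4, and 137 and 4.2 in Fah p21 off 1 and 2.

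**Figure D5:**
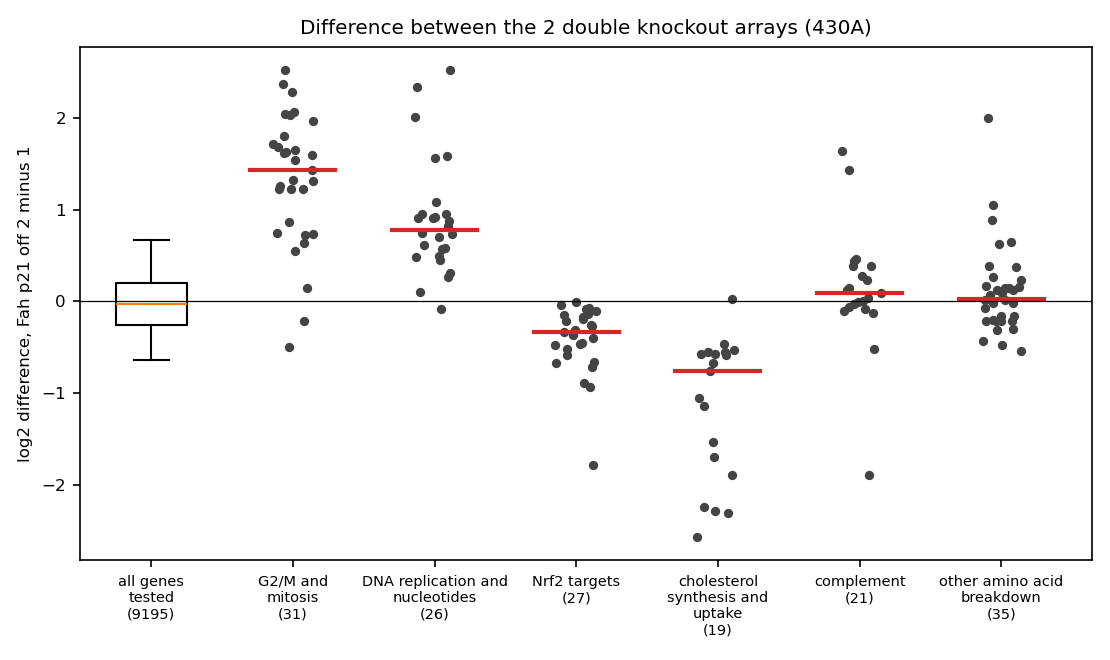
The y axis is the log2 difference of Fah p21 off 2 from Fah p21 off 1. The box spans the quartiles of all 9195 genes with whiskers at the 5th and 95th percentile, points are list members and red lines their medians; 29 of 31 G2 and mitosis genes but 1 of 19 cholesterol genes lie above 0.

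On the 430 2.0 array, scaled separately, Fah p21 off 3 and 4 were read against its 1 normal liver, numbered 4, with no test. The labels do not state whether that liver is from the mouse of normal 4 on 430A. G2 and mitosis had medians of 3.24 and 3.18, above Fah p21 off 1 and near Fah p21 off 2, and replication 1.46 and 1.75. Cdk1 was at 152.2 in that normal liver and at 1655 and 1955, Mki67 at 88.2 and at 2021 and 1055, and Hmmr at 4 and at 1590 and 1397. The mitotic genes were thus high in both of these livers. Nrf2 targets had medians of 1.60 and 1.4, fetal liver genes 3.62 and 3.52, complement -1.84 and -2.0, and male-biased genes -2.63 and -2.86. Afp was at 148.8 in the normal liver and at 14932 and 14139, and Hsd3b5 at 12995 and at 3.2 and 3.3. Cholesterol synthesis was at -1.20 and -0.36, again unequal between livers. Levels cannot be set across the 2 array designs, so these values stand beside those of 430A only as differences from each design's own normal level.

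Few probe sets passed a test of the double against the single knockout livers without NTBC. In the same limma fit 6 probe sets passed for Fah p21 off against Fah off, 4 higher and 2 lower, which is 4 of 9195 genes (0.0435%). Cdk1 was 3.81 ± 0.47 higher in log2 in the double knockout (limma adjusted p = 0.0451), Rrm2 3.5 ± 0.49 and Mcm5, a helicase subunit, 2.36 ± 0.32. Igfbp2 was lower (-1.72 ± 0.24), each at a limma adjusted p of 0.0472, and so was the _a_at probe set of Cdkn1a (-6.13 ± 0.41, limma adjusted p = 0.000201). The sixth probe set has no single gene symbol. The other genes named above did not pass that test, which does not show that they were alike. G2 and mitosis genes had medians of 0.39, 0.38 and 0.02 from the normal mean in Fah off 1 to 3, against 1.43 and 3.12 in Fah p21 off 1 and 2. The p53 targets had 1.02, 1.1 and 0.96, against 1.18 and 1.21. Differences of lists between these groups were not tested.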

How the data were processed

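Liver RNA was hybridised to 1-colour Affymetrix arrays, 12 in all, 9 of the 430A and 3 of the 430 2.0 design. The values are linear intensity signals per probe set that the authors deposited, and the submitters' processing notes name GCOS 1.4.0.036 and MAS5 without their roles. No scanner files were used here, so background correction and normalization could not be repeated, and the deposited values hold no depth: the number of arrays limits the precision. Each array of the comparison is labelled as a separate biological replicate.

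From the deposited intensity values log2(signal + 9.9) was computed, 9.9 being the 10th percentile of all 430A signals. The tested probe sets reached the 40th percentile of an array's signals on 2 or more of the 9 arrays (15307 of 22626, with 64 control probe sets left out). limma 3.58.1 in R 4.3.3 (lmFit, contrasts.fit, eBayes with an intensity trend, 6 residual and 5.01 prior degrees of freedom) was fitted to the normal, Fah off and Fah p21 off groups on 430A, without a block, and adjusted p-values are Benjamini-Hochberg values over all probe sets tested. On simulated data with 100 probe sets changed per fold size it recovered 55% at 2-fold and 82% at 4-fold, with 7 false calls. Far fewer probe sets were changed there than the 4353 that passed in the data, so these rates need not hold for them. Figures were drawn in Python 3.11.15 with matplotlib 3.10.9.

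Symbols came from the platform annotation: 20380 probe sets had 1 symbol, 691 several and 1555 none, and 20351 matched the RefSeq gene table by Entrez identifier. Promoters are RefSeq's on GRCm38.p6. The members and gene lists were chosen with earlier results of these data known. Named genes are the 20 largest rises and falls without overlap of the groups, up to 4 members that passed per list, the targeted genes, the 10 largest rises and falls among abundant genes, and the 10 genes most different each way between the double knockout arrays; other genes were named after their values were seen. Lists were described by counts and medians, with no set test.

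Replicate numbers do not pair the arrays: deviations from the group means of same-numbered normal and double knockout arrays correlated at -0.08 and 0.06 over probe sets. Alternatives covered the filter, the offset, the scaling, the limma settings, the control arrays, the replicate number, the probe set of a gene and each array left out.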

Additional observations from a re-analysis of the deposited data

Results flagged for a closer look

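In the normal group of 4 livers, 12 of 139 genes of the text had 1 array far from the other 3 by Dixon's gap test; chance flags about 1 in 20 groups. Normal 3, the Fah knockout on NTBC, was highest for Cbr3 (136.3), Mgst2 (67.6), Mcm6 (19.1), Itga6 (13) and Pmaip1 (13), and lowest for Krt19 (15.5). Normal 4, the double knockout on NTBC, was highest for Saa1 (3993.4) and lowest for Scd1 (3435.5), Mdh2 (2935.1) and S100a1 (1949.9). Normal 1 was highest for Tubb6 (71.3) and normal 2 for Cyp2c54 (5623.7). The values of Itga6, Pmaip1, Mcm6 and Krt19 lie near the offset of 9.9.

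Double and single knockout livers without NTBC differed in the same limma fit at Cdk1 (3.81), Rrm2 (3.5), Mcm5 (2.36), Igfbp2 (-1.72) and the _a_at probe set of Cdkn1a (-6.13), as log2 differences of Fah p21 off from Fah off. Cdk1, Rrm2 and Mcm5 were higher in the double knockout, and Igfbp2 and this probe set lower.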

How the results depend on the processing

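Of the named genes that had not passed, up to 3 changed direction in a setting. Of those that had passed, 2 did so over all settings, both after quantile normalization: Ttr went to 0.02 (limma adjusted p = 0.823) and Alb to 0.05 (limma adjusted p = 0.58). That scaling left 8 plasma carriers lower, and scaling to a common median gave 1626 probe sets higher and 2507 lower. A filter at the 60th percentile, which tests fewer probe sets, left 15 G2 and mitosis genes higher. With normal 3 and 4 as controls, 4 macrophage markers were higher. With normal 4 alone, which leaves 1 control array, 1862 probe sets passed (1187 higher, 675 lower) and 1126 genes, among them 13 G2 and mitosis, 9 replication, 4 stellate and 3 macrophage genes higher, and 17 genes of other amino acid breakdown, 5 of the urea cycle, 8 of bile acids and 3 of cholesterol lower. With the replicate number as a block, a number that does not pair the arrays, 3479 probe sets passed and 11 cholesterol genes were lower. A filter without the double knockout arrays, chosen after seeing the data, gave 4248 probe sets passed. It tested 131 of the named genes, all with the same call and direction, against 137 with the main filter. Some dim named genes thus entered the test only through the double knockout arrays.

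Leaving out each array in turn, a lone double knockout array being assumed to vary like the other groups, gave 2533 to 4663 probe sets passed, 1484 to 2876 higher, 982 to 1787 lower, and 1583 to 2876 genes. Higher were 16 to 27 G2 and mitosis genes, 11 to 19 replication genes, 11 to 16 p53 targets, 18 to 22 Nrf2 targets, 13 to 14 fetal genes, 7 to 13 stellate, 4 to 13 macrophage and 4 to 6 cholangiocyte markers. Lower were 15 to 16 complement, 18 to 19 coagulation, 18 to 22 plasma carrier, 23 to 29 other amino acid breakdown, 7 to 9 urea cycle, 18 to 22 cytochrome P450, 11 to 15 bile acid, 8 to 9 male-biased and 4 to 6 cholesterol genes. The cause of these differences was not tested. Signals near the offset limit the folds of dim genes.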
